A study of Rattus norvegicus with 58 samples.

Results

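The synovium of healthy rats that had received RTD-1 for 3 days was set against that of naive rats. The comparison takes 5 libraries labelled healthy, RTD-1 and 3 days and 4 libraries labelled naive, chosen by their labels alone, which makes 9 of the 58 libraries of the series. All rats were female DA/OlaHsd, a strain that develops arthritis readily, and the growth protocol on every sample gives 6 to 8 weeks as the age at induction of arthritis, with no separate age for healthy and naive rats. The healthy rats received RTD-1 under the skin at 5 mg per kg, in saline, for 3 days (n = 5) or 5 days (n = 5). The naive rats (n = 4) carry no treatment in their labels. The other groups had pristane-induced arthritis (PIA) and received RTD-1 for 1, 3 or 5 days (n = 4, 8 and 8), saline for 1, 3 or 5 days (n = 4, 8 and 8) or neither (n = 4). No healthy rats given saline were analysed here, so RTD-1, its injection and any handling that went with it cannot be told apart in this comparison. Every healthy RTD-1 library was also sequenced deeper than every naive one, so depth and whatever goes with it cannot be told apart from RTD-1 either. The labels do not tie libraries to separate animals, and p-values here speak only of how libraries of a group vary.

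The synovium is the tissue that lines the joint. Its lining fibroblasts secrete the lubricants of joint fluid, its resident macrophages take up debris, and a vascular, fatty layer lies beneath them. RTD-1 is a cyclic theta-defensin of rhesus macaques, an antimicrobial peptide that also dampens the release of inflammatory cytokines and proteases from leukocytes. The arthritic arms of the series ask whether it changes inflamed joints, and the healthy arm covers the same injections without arthritis. As whole tissue was sequenced, fewer cells of a type and less RNA per cell cannot be told apart.

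Genes carry Ensembl identifiers. None of the 16879 identifiers could be paired with a symbol or a sequence in the tables used here, so no gene is described by its function, and neither the labelled tissue nor other cell types were checked against their markers.

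Healthy RTD-1 and naive libraries differed in depth without overlap. Reads in genes ran from 4437281 to 6183258 in the day 3 RTD-1 libraries and from 1573925 to 2396818 in the naive ones. The deposited values carry a scaling factor for each library, which was between 11.1 and 14.3 megareads after 3 days of RTD-1 and between 5.52 and 6.47 megareads in naive tissue. Genes with at least 1 read numbered between 14627 and 15903 after RTD-1 and between 14596 and 15574 in naive tissue. Of the other libraries, the 5 healthy RTD-1 libraries of day 5 (13.9 to 17.5 megareads) and 3 arthritic saline libraries (10.9 to 15.3 megareads) had factors of at least 10 megareads, and the remaining 41 arthritic libraries had at most 8.19. The 3 saline libraries (day 1 replicate 2, day 3 replicate 4, day 5 replicate 1) are called the deeper saline libraries below. The limit of 10 megareads was set with the data in view. Because no naive library was deeper and no healthy RTD-1 library was not, no value within a depth class could be computed.

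After 3 days of RTD-1, 1445 of 11959 genes tested (12.1%) differed from naive tissue. Of these, 778 (6.51%) were higher and 667 (5.58%) were lower, and 323 (2.7%) differed at least 2-fold, 160 higher and 163 lower. The near balance of directions depends on centring each library on its median gene, as 94.3% of the genes called without centring were higher. Most differences were small, with a median size of 0.65 log2 among the called genes and 0.25 among all genes tested. The genes called higher took between 6.78% and 7.25% of reads after RTD-1, against 4.43% to 4.72% in naive libraries. The genes called lower took between 4.56% and 5.04% of reads after RTD-1, against 7.27% to 7.85% in naive libraries. These shares describe genes that the same libraries chose.

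The test was limma on log2(normalized reads + 1), where normalized reads are reads scaled to a factor of 5.75 megareads and then centred on each library's median gene. The test was two-sided, p-values were adjusted by the Benjamini-Hochberg method over all genes tested and called under 0.05, and 3287 genes had an unadjusted p under 0.05. The 5 RTD-1 libraries did not overlap the 4 naive libraries in 1653 genes (13.8%), of which 1167 were also called (9.76% of genes tested). Called genes were found at every level of expression, from 7.81% of genes with a mean level under 4 log2 to 16.1% of those between 8 and 10 log2, with 9.32% above 10 log2. The median SE was 0.38 log2 in the lowest of these classes and 0.12 log2 between 8 and 10. Without centring, the median gene was 0.31 log2 higher after RTD-1 and 2822 genes were called, 2660 higher and 162 lower. With reads thinned to 1573925 in each library 931 genes were called, 502 higher and 429 lower, and with the arthritic libraries added to the estimate of the spread 610 were called.

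**Figure D1:**
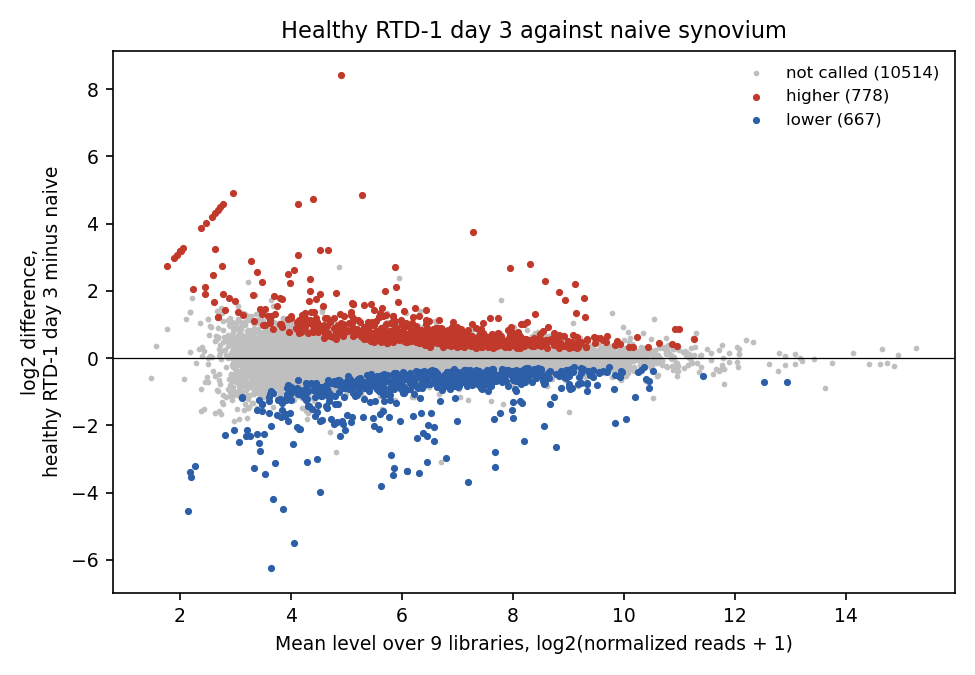
Log2 difference of healthy RTD-1 day 3 minus naive synovium (vertical axis) against the mean level over the 9 libraries (horizontal axis, log2(normalized reads + 1)), with 1 point for each of 11959 genes. Red points are the 778 genes called higher and blue points the 667 called lower, and the widest differences, up to 8.40 log2 higher, lie at middle and low levels.

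Among called genes with a mean level of at least 5 log2 and no overlap between the groups, the 15 with the largest differences each way ran from 1.497 to 4.852 log2 among the higher ones and from -2.45 to -3.80 log2 among the lower ones. The leading 2 of each direction are given in full. The choice required a call and groups that do not overlap, so neither is further support for these genes.

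Among genes with a mean level of at least 5 log2 and groups apart, ENSRNOG00000055316 had the largest rise. Its 5 RTD-1 libraries held 121, 139, 144, 225 and 272 normalized reads, against 4.30, 8.60, 1.86 and 7.03 in the 4 naive libraries. Every RTD-1 library stood far above every naive one, although RTD-1 libraries differed among themselves by more than 2-fold. The means were 180.3 ± 65.1 (SD, n = 5) and 5.45 ± 2.98 (SD, n = 4), a log2 difference of 4.85 (SE 0.367, limma adjusted p = 4.51e-07). The naive values rest on 2 to 7 reads each, whereas the RTD-1 values rest on at least 275.

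ENSRNOG00000008551 had the second largest rise among these genes. It had 515, 359.8, 476, 540.5 and 619 normalized reads in the RTD-1 libraries, against 43.0, 24.6, 45.6 and 33.8 in the naive ones. The lowest RTD-1 library was well above the highest naive one, with means of 502 ± 95.1 (SD, n = 5) and 36.7 ± 9.56 (SD, n = 4). The log2 difference was 3.74 (SE 0.167, limma adjusted p = 5.49e-10).

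The largest fall among these genes was that of ENSRNOG00000032777. Its RTD-1 libraries held 22.3, 7.60, 13.3, 15.8 and 16.9 normalized reads, against 192, 189, 233 and 242 in naive libraries. All 5 RTD-1 libraries lay far below all 4 naive ones. The means were 15.2 ± 5.36 (SD, n = 5) and 214 ± 27.2 (SD, n = 4), a log2 difference of -3.80 (SE 0.237, limma adjusted p = 1.47e-08).

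ENSRNOG00000031273 fell by 3.67 on the log2 scale (SE 0.176, limma adjusted p = 5.76e-10). It held 58.1, 30.4, 48.8, 36.4 and 64.9 normalized reads after RTD-1, against 584, 547, 626 and 636 in naive tissue. The groups were again widely apart, and the naive libraries lay close together, with means of 47.7 ± 14.4 (SD, n = 5) after RTD-1 and 598 ± 41.0 (SD, n = 4) in naive tissue. With a term for deeper libraries, which rests on the 3 deeper saline libraries and was added after seeing the data, the log2 difference turned to 3.69 for this gene (limma adjusted p = 1.85e-22) and to 0.97 for ENSRNOG00000032777 (limma adjusted p = 0.0458). Under the same term ENSRNOG00000008551 was no longer called (0.27 log2, limma adjusted p = 0.951) and ENSRNOG00000055316 stood at 2.31 log2 (limma adjusted p = 0.0402). The term takes the difference of the deeper saline libraries away from the healthy one. Whether that difference applies to healthy tissue was not tested.

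1 further gene, ENSRNOG00000011292, is given because it had no read in any naive library, a choice made with its values in view. It had between 797 and 1084 reads in the RTD-1 libraries, which are 339, 404, 377, 420.4 and 469 normalized reads. Against a floor of 3 reads in a single naive library, or 4.22 normalized reads, it was at least 80.3-fold higher after RTD-1. Under the term for deeper libraries its log2 difference was -0.34 (limma adjusted p = 0.959). The floor covers counting error only. With no naive read, this gene too passed the filter only through the healthy RTD-1 libraries. In all, 85 of 16879 genes had reads in all 5 RTD-1 libraries and none in the 4 naive libraries, and 10 of them had at least 20 reads in each RTD-1 library. The reverse held for 14 genes, none of which exceeded 19 reads in a naive library. The RTD-1 libraries were also the deeper ones, and the part of depth in these counts was not tested.

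2 of the 15 largest falls had nearly the same counts as each other. They were equal in 53 of 58 libraries and differed by at most 2 reads in the others, at up to 541 reads, so they may share reads and their values cannot be separated. Between 25 and 86 reads of these genes were counted after RTD-1, against 185 to 329 in naive libraries.

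After 5 days of RTD-1 the picture was close to that of day 3. Against the same naive libraries 1340 genes (11.2%) were called, 700 higher (5.85%) and 640 lower (5.35%), and 311 differed at least 2-fold. As both days are set against the same 4 naive libraries, no overlap between them is given, and the direct comparison of the days is the one to read. limma called 0 of 11959 genes between day 5 and day 3, and 227 (1.9%) had an unadjusted p under 0.05. Among the 1445 genes called on day 3, 54 (3.74%) had an unadjusted p under 0.05 for day 5 against day 3. For 1377 of them (95.3%) the 95% interval of the difference lay within 1 log2 either way. The median half-width over the 1445 genes was 0.30 log2. The limit of 1 log2 is wider than the median size of the day 3 differences of these genes, 0.65 log2, so it does not exclude changes of that size.

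The leading genes held similar levels on day 5. ENSRNOG00000008551 had 418, 463, 414, 387 and 435 normalized reads on day 5, a mean of 423 ± 28.2 (SD, n = 5), 0.23 log2 below day 3 (SE 0.157). ENSRNOG00000031273 had 52.3, 47.3, 50.9, 55.3 and 53.6 on day 5, 0.17 log2 above day 3 (SE 0.166). ENSRNOG00000032777 had between 12.3 and 18.7 on day 5, 0.05 log2 above day 3 (SE 0.224). The day 5 values of all 3 genes stayed far from the naive ones. ENSRNOG00000055316 had 161, 83.9, 69.4, 152 and 113 normalized reads on day 5, 0.64 log2 below day 3 (SE 0.346), the widest gap of the 4 genes, and it did not pass the test between days (limma adjusted p = 1.00 for each of the 4).

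**Figure D2:**
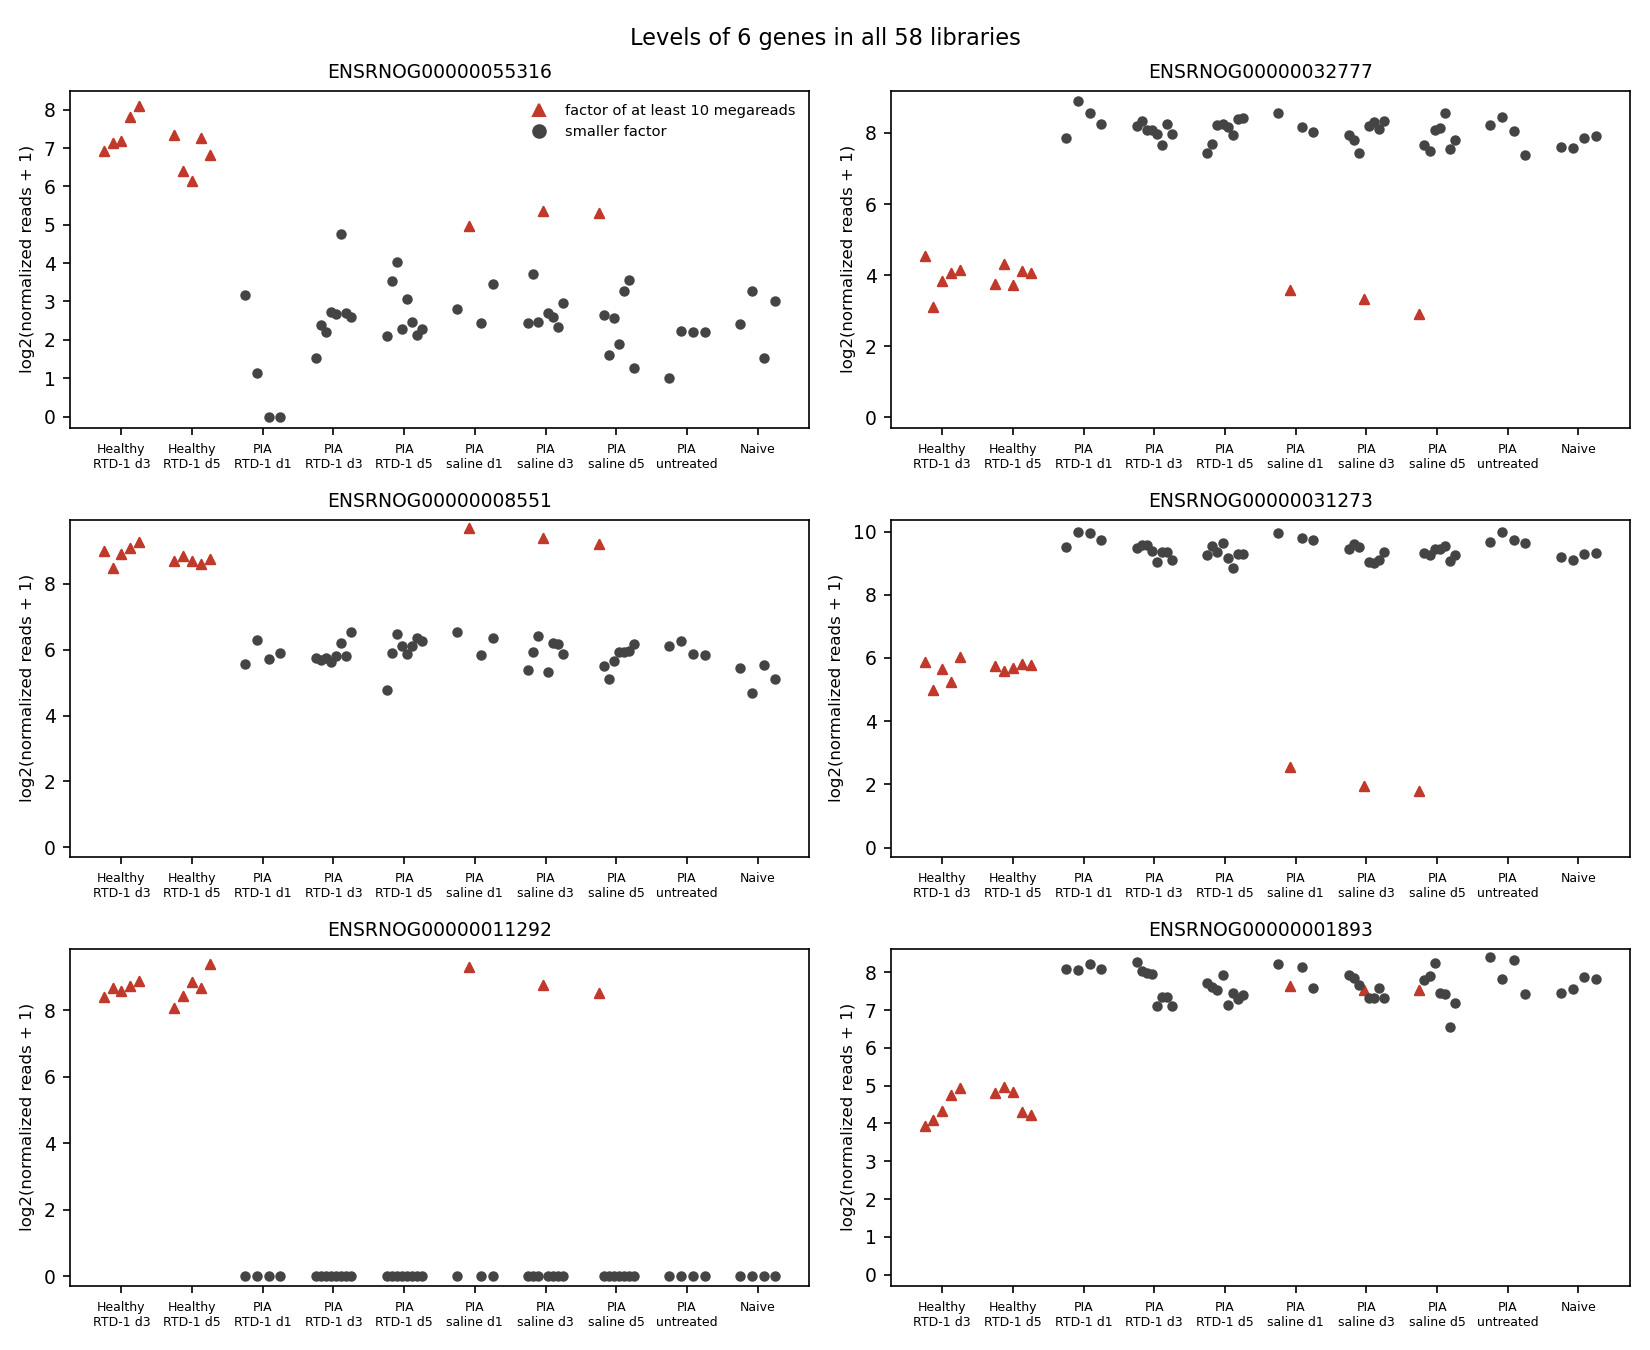
Level of 6 genes in all 58 libraries (vertical axis, log2(normalized reads + 1)), with libraries grouped along the horizontal axis and 1 point per library. Red triangles are the 13 libraries with a factor of at least 10 megareads and dark circles the other 45. In 5 of the panels the 3 deeper saline libraries lie apart from the other saline libraries, on the side of the healthy RTD-1 libraries, and in the panel of ENSRNOG00000001893 they lie among the other saline libraries, between 182 and 200 normalized reads.

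Arthritic rats offer the comparison that the healthy rats lack, 3 days of RTD-1 against 3 days of saline. There, limma called 2 of 13062 genes (0.0153%), both lower, and 1510 had an unadjusted p under 0.05. None of the 1445 genes called in healthy rats was among the 2, a number too small to set them apart from other genes. Of the 1445, 165 (11.4%) had an unadjusted p under 0.05 by limma in arthritic rats, against 11.9% of all genes tested. The difference had the same sign in arthritic as in healthy rats for 39.5% of the 1445, against 47.2% of all genes tested. The 160 genes at least 2-fold higher in healthy rats, by a median of 1.35 log2, had a median difference of -0.17 log2 in arthritic rats. The 163 genes at least 2-fold lower in healthy rats, by a median of -1.64 log2, had a median difference of 0.41 log2 in arthritic rats. Both arthritic medians were near 0 without the 1 deeper saline library of day 3, at -0.02 and -0.02 log2, and 53.5% of the 1445 then had the same sign, against 51.7% of all genes tested. The count of 2 itself moved to between 0 and 63 as each of the 16 arthritic libraries was left out.

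The healthy and arthritic differences were compared directly, as the healthy difference minus the arthritic one. The healthy difference lacks injected controls, so the result cannot be told apart from injection or library differences. limma called 527 of 13062 genes (4.03%), 314 higher (2.4%) and 213 lower (1.63%), and 405 of the 1445 genes (28%) were among them. The healthy difference both chose the 1445 and entered this test, so the 28% describes them and is not independent of the choice. For ENSRNOG00000008551 the healthy difference exceeded the arthritic one by 4.19 log2 (SE 0.721, limma adjusted p = 0.000169), with an arthritic difference of -0.43 log2 (SE 0.431). For ENSRNOG00000032777 the value was -4.43 log2 (SE 0.953, limma adjusted p = 0.00321), with an arthritic difference of 0.64 log2 (SE 0.569). The saline group of day 3 includes 1 deeper library, which held 671 normalized reads of the first gene and 9.07 of the second. The 17 saline libraries that were not deeper held 33.9 to 91.8 and 172 to 378. Without that deeper library the count of 527 was 372. It was 341 without naive replicate 2 and 886 (814 higher and 72 lower) without centring. With the term for deeper libraries it was 630, of which 61 were among the 527.

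The 3 deeper saline libraries share no library with the comparison of healthy RTD-1 and naive rats and come from rats that received no RTD-1. Set against the 17 other saline libraries of their own days, they differed in 1315 of 11959 genes by limma (11%), 621 higher (5.19%) and 694 lower (5.8%). Without the deeper library of day 3 the count was 870, and without centring it was 877, 296 higher and 581 lower (33.8% higher, against 47.2%). Of the 1445 genes called between RTD-1 and naive, 1322 (91.5%) had a difference of the same sign between deeper and other saline libraries, against 68.7% of all genes tested. 430 of the 1445 (29.8%) were called in the same direction there and 30 in the opposite direction. Over all 11959 genes tested these numbers were 1028 (8.6%) and 287. All 3 deeper saline libraries lay beyond all 17 others on the side of RTD-1 for 340 of the 1445 genes (23.5%), and on the opposite side for 25 (1.73%). Over all genes tested these shares were 6.34% and 1.82%. Taken singly, each deeper saline library had the same sign as the RTD-1 difference for 82.0% to 87.1% of the 1445 genes, and each other saline library for 43.3% to 57.6%. These shares are descriptions over genes of shared libraries, and what the deeper libraries have in common beyond their depth was not tested.

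**Figure D3:**
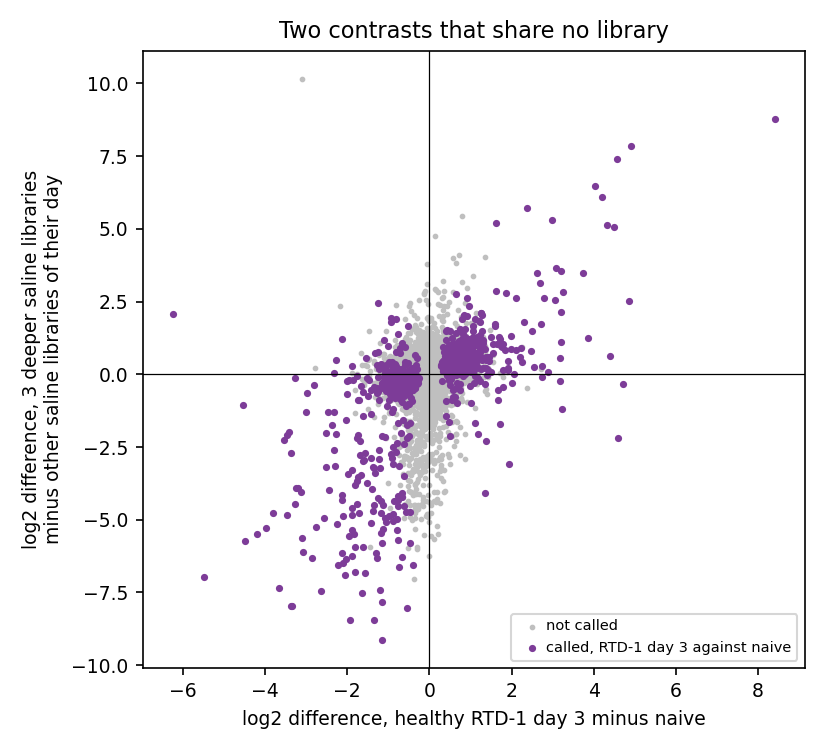
Log2 difference of the 3 deeper saline libraries minus the other saline libraries of their day (vertical axis) against the log2 difference of healthy RTD-1 day 3 minus naive (horizontal axis), with 1 point for each of 11959 genes. Purple points are the 1445 genes called between RTD-1 and naive, of which 91.5% lie at the lower left or upper right of the crossing lines, and grey points are the genes not called.

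The genes that differed at least 2-fold showed this in both directions. Of the 163 genes at least 2-fold lower after RTD-1, 99 (60.7%) had all 3 deeper saline libraries below all 17 others, and 2 had them above. Their median difference was -1.64 log2 between RTD-1 and naive and -2.72 log2 between deeper and other saline libraries, wider in the saline libraries. Of the 160 genes at least 2-fold higher, 56 (35%) had all 3 deeper saline libraries above all others and 6 had them below. Their median difference was 1.35 log2 between RTD-1 and naive and 0.71 log2 in the saline libraries.

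The leading genes followed the same pattern. ENSRNOG00000032777 held 10.9, 9.07 and 6.53 normalized reads in the deeper saline samples of days 1, 3 and 5, against 172 to 378 in the 17 others. ENSRNOG00000031273 held 4.84, 2.86 and 2.45, against 511 to 989. The first lay within or below its range after RTD-1 in these libraries, and the second lay below its own. ENSRNOG00000008551 held 836, 671 and 596, against 33.9 to 91.8 in the other saline libraries, and in 2 of the 3 it exceeded every day 3 RTD-1 library. ENSRNOG00000055316 held 30.2, 40.1 and 38.8, against 1.41 to 12.2, below its levels after RTD-1. ENSRNOG00000011292 had 1030, 907 and 904 reads in the deeper saline libraries and none in any of the other 41 arthritic libraries.

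Among the 15 largest rises, all 3 deeper saline libraries lay above all other saline libraries in 15 genes. Among the 15 largest falls they lay below them in 12, and in 1 they lay within the range of the others. Over all genes tested, they lay beyond the others on the side of RTD-1 in 6.34%. For 8 of the 15 rises and all 15 falls, none of the 41 other arthritic libraries passed the midpoint between naive and RTD-1. The remaining rises passed it in 1 to 41 of these libraries, with ENSRNOG00000000451 beyond it in all 41. In the 20 arthritic RTD-1 libraries, ENSRNOG00000031273 held between 458 and 1004 normalized reads and ENSRNOG00000008551 between 26.2 and 92.8, levels of the saline libraries that were not deeper.

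Across all 58 libraries, 119 of the 11959 genes (0.995%) separated the 13 deeper libraries from the 45 others without overlap, 41 with the deeper libraries above and 78 with them below. All 119 were among the 1445 called genes, which is largely fixed by the choice, since the 13 include the 5 RTD-1 libraries and the 45 include the naive ones. They made up 72 of the 163 genes at least 2-fold lower (44.2%) and 26 of the 160 at least 2-fold higher (16.2%). In the unfiltered table, 24 of 16879 genes, ENSRNOG00000011292 among them, had reads in all 13 deeper libraries and none in the other 45, and 0 genes showed the reverse.

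Each library was also placed on a scale over the 323 genes that differed at least 2-fold, with the naive mean at 0% and the mean of RTD-1 day 3 at 100% for each gene and the median taken over genes. The day 5 RTD-1 libraries lay between 89.1% and 99.6%. The deeper saline libraries lay at 106% to 111%. The 20 arthritic RTD-1 libraries lay between -2.01% and 12.4%, the 17 other saline libraries between -4.19% and 15.5%, and the untreated arthritic libraries between 0.194% and 3.36%. Among arthritic libraries, the 3 above 100% were the 3 with factors of at least 10 megareads, and the ranges of RTD-1 and of the other saline libraries overlapped. On the genes higher after RTD-1 alone, the deeper saline libraries lay between 82.1% and 91.9%, and on the lower genes alone between 144% and 153%. The higher genes gave the arthritic libraries that were not deeper a spread of 2.82% to 37.4%.

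**Figure D4:**
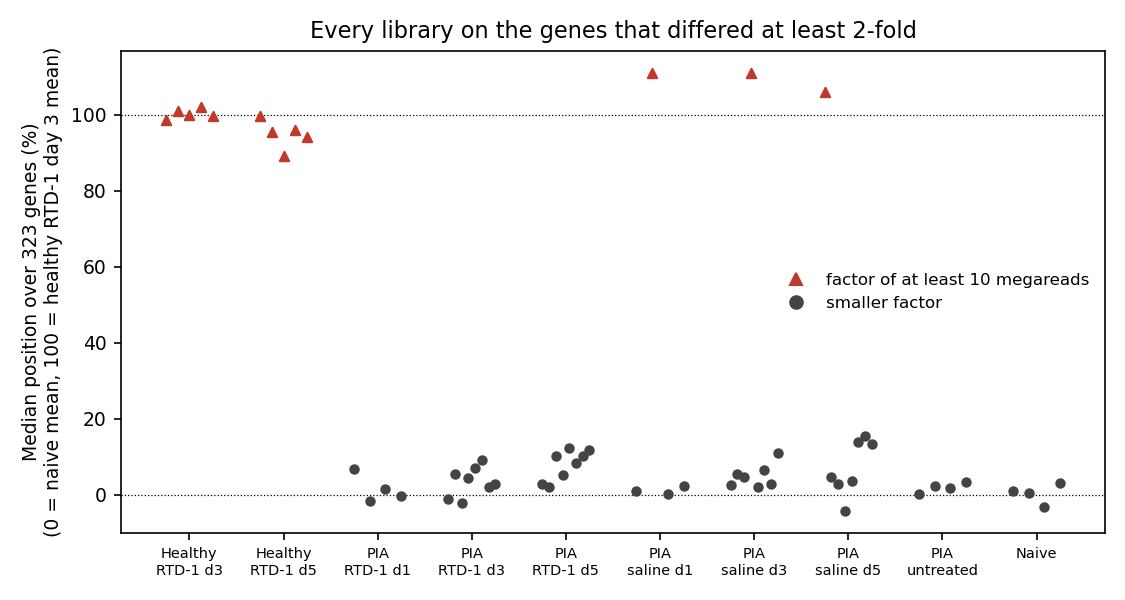
Median position of each of the 58 libraries over the 323 genes that differed at least 2-fold (vertical axis, percent, with the naive mean at 0 and the healthy RTD-1 day 3 mean at 100, both by construction), by group along the horizontal axis. Red triangles are libraries with a factor of at least 10 megareads. The 3 red saline libraries lie at 106% to 111%, and every arthritic library drawn as a dark circle lies at 15.5% or lower.

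For 1080 of the 1445 called genes (74.7%), and for 160 of the 323 that differed at least 2-fold (49.5%), the deeper saline libraries did not all lie beyond the others on either side. Over all genes tested this held for 10983 (91.8%), a larger share than among the called genes. Stricter limits on the genes gave a smaller set. Of the called genes that differed at least 2-fold, had a mean level of at least 5 log2 and did not overlap between the groups (59 higher and 66 lower), 21 higher and 21 lower genes had all 3 deeper saline libraries within the range of the other saline libraries. The 2 largest of each direction are given, a choice made after their values were seen. That their deeper saline libraries lie within that range was fixed by this limit.

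The largest of the falls was ENSRNOG00000001893. It held 14.3, 16.2, 19.1, 25.9 and 29.4 normalized reads after 3 days of RTD-1, and 27.2, 29.97, 27.7, 18.9 and 17.6 after 5 days, against 173, 187, 234 and 224 in naive libraries. The 10 healthy RTD-1 libraries held at most 29.97 and every other library of the series at least 93.4. The log2 difference on day 3 was -3.27 (SE 0.220, limma adjusted p = 2.59e-08). The deeper saline libraries held 200, 182 and 183, within the 93.4 to 300.5 of the other saline libraries and at the level of naive tissue. The 20 arthritic RTD-1 libraries held between 137 and 311, with a difference from saline on day 3 of 0.09 log2 (SE 0.176). The healthy and arthritic differences differed by -3.35 log2 (SE 0.294, limma adjusted p = 2.03e-12).

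ENSRNOG00000053070 showed the same pattern with a smaller fall. It held 20.5, 19.8, 23.4, 22.6 and 24.7 normalized reads after 3 days of RTD-1, against 62.3, 81.1, 109.8 and 61.9 in naive libraries. The groups were apart, as the choice required, with a log2 difference of -1.75 (SE 0.190, limma adjusted p = 1.05e-05). It held 89.5, 78.2 and 66.6 in the deeper saline libraries and 44.5 to 140.1 in the arthritic RTD-1 libraries. That the deeper saline libraries did not lie below the other saline libraries was fixed by the limit that chose this gene.

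Among the rises, ENSRNOG00000039744 held 99.0, 110.0, 119, 93.4 and 86.0 normalized reads after RTD-1, against 45.1, 29.5, 23.3 and 60.5 in naive libraries. Its log2 difference was 1.41 (SE 0.243, limma adjusted p = 0.00131). The deeper saline libraries held 43.5, 58.7 and 66.6, all below every day 3 RTD-1 library. The other saline libraries spanned 29.8 to 101.8, which reached into the range of RTD-1 day 3. Arthritic RTD-1 libraries held 33.9 to 84.0, and healthy RTD-1 libraries of day 5 held 69.8 to 138.3. ENSRNOG00000012081 held 182, 89.2, 153, 126 and 138 after RTD-1, against 37.6, 28.3, 79.1 and 67.5 in naive libraries, a log2 difference of 1.43 (SE 0.261, limma adjusted p = 0.00249), which was 0.90 and no longer called with the term for deeper libraries (limma adjusted p = 0.265). Its levels in deeper saline libraries, 126, 146.5 and 122.5, were as high as after RTD-1, and the other saline libraries spanned 45.2 to 180 with a median of 90.3. That range held 4 of the 5 RTD-1 values and 2 of the 4 naive ones.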

How the data were processed

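Synovial RNA was sequenced as single reads of 75 nt from a stranded total RNA kit, per the labels' protocols. The submitters' processing notes name HISAT and DESeq without versions. The genome build and gene models were not given in the sources used here. Each deposited value is the log2 of whole reads over a factor of its library, with 0.9 of a read in place of 0. Multiplying back gave whole numbers for 100% of values above 0 (relative tolerance 0.001). The row without an identifier, 0.000384% to 0.0137% of reads, was left out.

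Reads were scaled to 5.75 megareads and centred on each library's median gene. Genes were kept where 4 or more of the 14 libraries without arthritis had 10 or more normalized reads, and for comparisons with arthritic rats where 4 or more of 58 did. limma 3.58.1 in R 4.3.3 was run with trend and robust settings, as 1 fit of 3 group means over the 14 libraries, and as 1 fit of 10 group means over all 58 for arthritic comparisons. The test was chosen for linear normalized values and was applied after undoing the logarithm. Within groups the lowest chi-square between pairs of libraries was 6.70 per degree of freedom, above sampling noise. Same-numbered healthy day 3 and naive libraries had correlations of deviations from -0.12 to 0.27, so the numbers were not taken as pairs.

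The comparison, the lists and the tests were chosen with earlier results of these data known. Genes to be named were the 15 largest differences each way among called genes with a mean of at least 5 log2 and no overlap. The rule needed symbols, and as no identifier matched the reference table, 2 per direction are given by identifier. The lists of pathways and cell markers were not analysed here. The fit of the 14 libraries was also run on simulated reads for day 3 against naive, and the outcome is not given here. The other fits were not run on simulated reads. Alternatives were other scalings, pseudocounts, filters, fits, thinning, voom and each library left out in turn, and a term for deeper libraries was added after seeing the data. Figures were drawn with matplotlib 3.10.9.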

Additional observations from a re-analysis of the deposited data

Results flagged for a closer look

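On the scale with naive at 0% and healthy RTD-1 day 3 at 100%, 3 saline libraries lay far from the rest of their groups. Replicate 2 of day 1 lay at 111% (others 0.255% to 2.44%), replicate 4 of day 3 at 111% (others 1.96% to 10.9%) and replicate 1 of day 5 at 106% (others -4.19% to 15.5%). They are the 3 saline libraries with factors of at least 10 megareads.

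The row without an identifier held 0.00708% of reads in healthy RTD-1 day 3 replicate 2, below the 0.0119% to 0.0137% of the other 4. That lowest value, 0.00708%, was still above the 0.00163% to 0.00329% of the naive libraries, and the deeper saline libraries held 0.000384% to 0.00153%. In a search of 45 groups of values, 4 single libraries stood apart in this way. The limit used is a 95% critical value, which by its construction is passed by about 1 in 20 groups.

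The difference of healthy RTD-1 and naive rats was unlike that of arthritic RTD-1 and saline rats on day 3 in 527 genes by limma. For the named genes the healthy difference minus the arthritic one was 5.25 log2 for ENSRNOG00000055316, 4.19 for ENSRNOG00000008551, 9.50 for ENSRNOG00000011292, 1.24 for ENSRNOG00000012081 and 1.05 for ENSRNOG00000039744. It was -4.43 for ENSRNOG00000032777, -4.63 for ENSRNOG00000031273, -3.35 for ENSRNOG00000001893 and -1.91 for ENSRNOG00000053070. The value for ENSRNOG00000011292 depends on the pseudocount, as naive libraries held no read. Its arthritic difference was -1.08 log2, and of the arthritic libraries of day 3 only the deeper saline one held reads (907).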

How the results depend on the processing

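The count for day 3 against naive was within 1.5 times of 1445 under 9 of 14 settings. It was 2822 without centring (94.3% higher, against 53.8%), 610 with all 58 libraries in the fit, 931 after thinning, 899 with voom and 641 with a term for deeper libraries. The count for day 5, 1340, became 3136 without centring (95.2% higher, against 52.2%), 807 with only the libraries compared, 551 with all 58, 852 after thinning, 869 with voom and 638 with the term. Leaving out 1 library gave 1047 to 1353 on day 3 and 976 to 1301 on day 5. With a replicate block, whose numbers do not pair the libraries, the counts were 1112 and 1002, and best-correlated numbers of naive 1 to 4 were 4, 2, 3 and 1. Day 5 against day 3 gave 0 genes under all 13 settings and 10 libraries left out. The term rests on 3 saline libraries and needs arthritic libraries in the fit. Its 641 is therefore to be read beside the 610 with all 58 libraries, and its 638 beside 551. Of its 641 genes, 206 were also in the 1445, 86 with the same sign and 120 with the opposite one. Under it, and no other setting, log2 differences turned for ENSRNOG00000032777 (0.97, limma adjusted p = 0.0458), ENSRNOG00000031273 (3.69, limma adjusted p = 1.85e-22) and ENSRNOG00000011292 (-0.34, limma adjusted p = 0.959), ENSRNOG00000008551 (0.27, limma adjusted p = 0.951) and ENSRNOG00000012081 (0.90, limma adjusted p = 0.265) were no longer called, and ENSRNOG00000055316 stood at 2.31. Only saline groups hold libraries of both kinds, so the term takes the deeper saline difference away from the healthy one, and the shifts follow from that. Whether the saline difference applies to healthy tissue was not tested. The arthritic count of 2 was 1 without centring or with pseudocount 8, 7 with pseudocount 0.5, 8 without the deeper saline library or with the term, and 5 with the block. It was 0 to 63 with 1 library left out: 10 (RTD-1 replicate 1), 4 (RTD-1 2), 50 (RTD-1 5), 4 (RTD-1 6), 11 (RTD-1 7), 0 (saline 2), 63 (saline 3), 8 (saline 4) and 1 (saline 5). The 527 genes that differed between healthy and arthritic rats became 886 without centring, 630 with the term (61 of them among the 527), 509 with the block and 341 to 638 with 1 library left out, 341 being without naive replicate 2. The deeper saline count of 1315 became 877 without centring (33.8% higher, against 47.2%) and 870 to 964, 870 being without day 3 replicate 4. Naive depth, at least 1573925 reads, limits genes with few reads.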
